A study of Homo sapiens with 6 samples.

Results

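The 10 genes described here are Hsf1, which encodes the heat shock transcription factor HSF1, and 9 chaperone genes: the HSP70 genes Hspa8, Hspa1a and Hspa1b, the HSP110 gene Hsph1, the HSP40 gene Dnajb1, the HSP90 genes Hsp90aa1 and Hsp90ab1, and the mitochondrial chaperonin genes Hspd1 (HSP60) and Hspe1 (HSP10). They were chosen by symbol, and all 10 were among the 21872 rows of the count table. RNA was sequenced from MOC2, a mouse head and neck squamous carcinoma cell line, in 3 control libraries and 3 libraries whose genotype label is knockout of HuR, the RNA-binding protein encoded by Elavl1. Both groups received lentiviral particles, carrying either control or HuR CRISPR/Cas9, and both were grown in the same serum-containing medium. A single clone was isolated for loss of HuR, and the labels do not name further clones for the 3 knockout libraries, so differences between this clone and the control cells cannot be told apart from loss of HuR, and p-values measure only the spread between these libraries, which may be technical. The sample titles call the same libraries knockdown, and the species label is human although the gene symbols are those of mouse.

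HSF1 is held inactive in unstressed cells by chaperones and, when proteins misfold, forms trimers that bind heat shock elements and switch on chaperone genes. HSP70 binds unfolded stretches of client proteins and works through ATP cycles that HSP40 proteins start and HSP110 proteins help to reset, after which many clients pass to HSP90 for late folding steps. HSP60 and HSP10 form the folding chamber of mitochondria, and their genes lie head to head with a shared promoter. Cancer cells are known to carry high levels of several of these proteins without heat stress.

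The deposited totals were between 16164136 and 21294330 counts per library. Elavl1 stood at 107, 120 and 117 CPM (counts scaled to library totals with TMM factors) in the control libraries, against 116, 114 and 105 CPM in the knockout libraries (log2 fold change -0.04, SE 0.111, adjusted p = 0.82, edgeR quasi-likelihood), so its mRNA level did not separate the labelled groups. Knockout library 3 stood apart from the other 2 knockout libraries, with which its log2 CPM correlated at 0.924 and 0.931 across genes, against 0.978 between those 2 and 0.987 to 0.992 between control libraries. Epithelial markers were lower in knockout for 10 of 13 tested (76.9%, beside 15.4% of all genes tested). Fibroblast markers were higher for 5 of the 6 tested of 12 listed (83.3%, beside 20.3% of all genes tested). Of these 5, Pdgfrb and Col6a2 passed the filter on low counts only through their knockout counts, so the filter fixed their direction. The summed level of the 14 epithelial markers was 12133 to 14877 CPM in control and 6042 to 8909 CPM in knockout, and that of the 12 fibroblast markers was 5.01 to 12.8 CPM and 2420 to 4582 CPM, with Lum at 0 in every library and Col1a2 at 0 in control. The 9 leukocyte markers summed to 23.7 to 40.1 CPM in control and 25.5 to 65.8 CPM in knockout, with Adgre1 and Itgam at 0 in every library. Of the 7 endothelial markers, 2 were tested and both were higher in knockout. Flt1 had 26.2, 14.8 and 27.7 CPM in the control libraries, against 208, 163 and 259 CPM in the knockout libraries. It made up most of the list's sum of 16.4 to 29.7 CPM and 166 to 264 CPM, while Pecam1, Cdh5, Kdr, Tek and Vwf were under 1 CPM in every library. The 8 muscle markers summed to at most 2.63 CPM in any library. The part of these shifts in the chaperone results was not tested. In bulk RNA, fewer cells of a type and less RNA per cell cannot be told apart.

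Chaperone mRNA was lower in the knockout libraries for part of the set. Of the 10 genes, 4 were lower in knockout with an adjusted p under 0.05: Hsph1, Hspa8, Hsp90aa1 and Hspa1a. None was higher (0 of 10 with edgeR's quasi-likelihood test, 0 at an unadjusted p under 0.05, and 0 by DESeq2 and limma-voom), and 6 did not pass. Across the 12293 genes tested, 15.4% were lower, 20.3% higher and 35.7% changed in either direction, so the 4 of 10 that changed lie near the share for all genes. That all 4 were lower was not tested as a property of the set. Without control library 1, 2 or 3 the number lower was 1, 2 and 3, without knockout library 2 it was 3, and without knockout library 3 it was 6. Over all genes tested, 1174, 1146, 1130, 1450 and 2843 were lower in the same fits, in place of 1899. With Hspa1a and Hspa1b summed into 1 row, 3 were lower: Hsph1, Hspa8 and Hsp90aa1. All 10 genes passed the filter on low counts. The median log2 fold change of the 10 was -0.46, beside 0.03 over all genes tested. The groups did not overlap for 8 of the 10, beside 57.6% of all genes tested; in all 8 every knockout library was below every control library, as for 27.9% of all genes tested. Together the 10 genes held 1.25% to 1.27% of all counts in the control libraries and 0.988%, 0.933% and 0.723% in knockout libraries 1, 2 and 3.

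**Figure D1:**
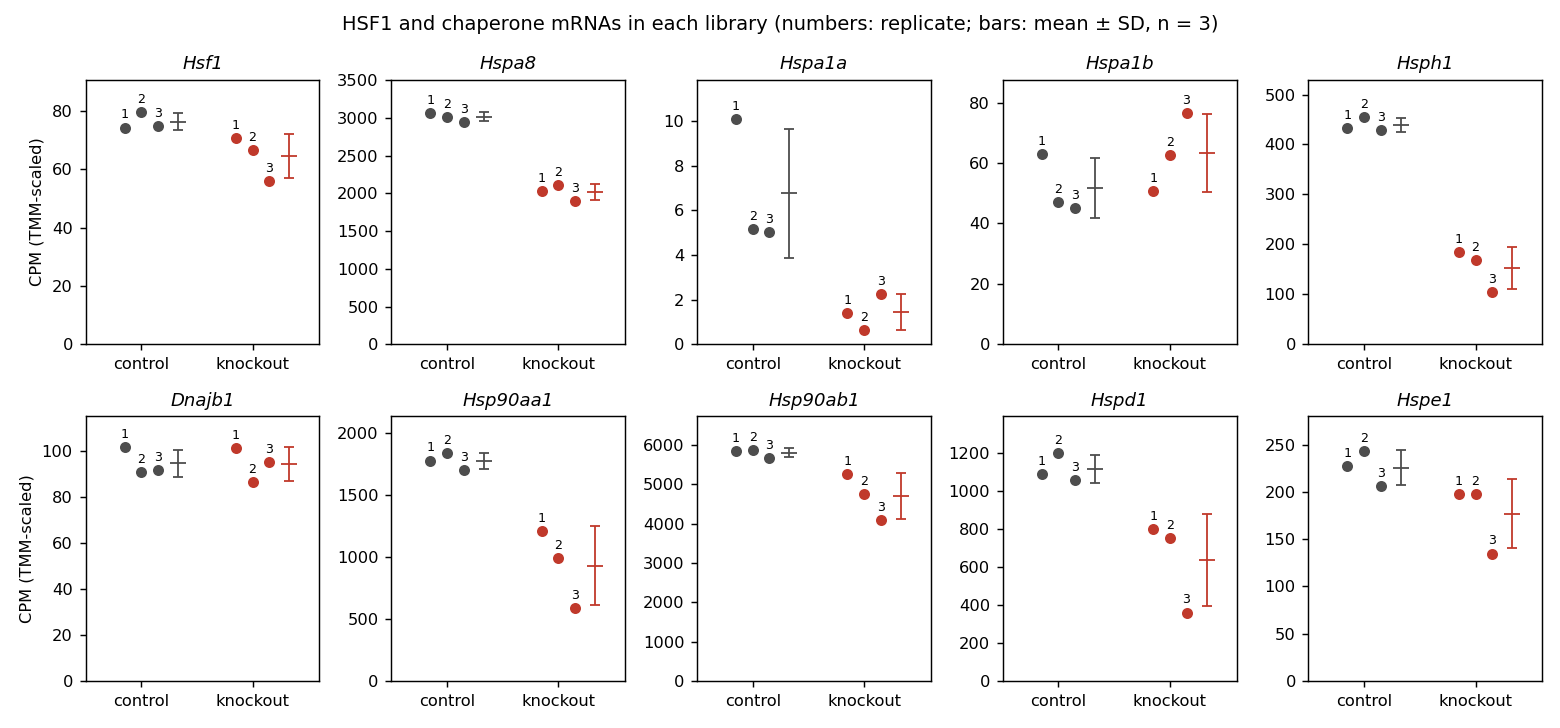
CPM of each of the 10 genes (vertical axis, from 0) in the 3 control and 3 knockout libraries, with the replicate number above each point and the mean ± SD beside each group. Hsph1, Hspa8, Hsp90aa1 and Hspd1 show a gap between the groups, while Dnajb1 and Hspa1b overlap, and knockout library 3 is the lowest of all 6 libraries for 7 of the 10 genes.

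Hsf1 itself did not pass the test. Its control libraries held 74.4, 79.9 and 75.0 CPM, against 70.7, 66.7 and 56.0 CPM in the knockout libraries. Every knockout value was below every control value, by the least for knockout library 1. The log2 fold change was -0.24 (SE 0.127, 95% interval -0.55 to 0.06, adjusted p = 0.178, edgeR quasi-likelihood). HSF1 activity is set mainly by its binding partners, its trimer state and its phosphorylation, none of which an mRNA level shows. The genes whose profile was closest to that of Hsf1, by the root mean square difference of log2 CPM centred on the control mean over the 6 libraries, were Bcas2, Txnl1 and Rbm17, at 0.0258, 0.0274 and 0.0276 among 10295 candidates. None of these 3 passed the test either.

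Hspa8 encodes HSC70, the constitutive cytosolic HSP70, which folds new proteins and strips clathrin from vesicles. Its control libraries held 3072, 3017 and 2952 CPM, against 2033, 2117 and 1905 CPM in the knockout libraries. Both groups were tight, and the lowest control value was well above the highest knockout value. Hspa8 fell 1.49-fold (log2 fold change -0.58, SE 0.118, 95% interval -0.86 to -0.30, adjusted p = 0.0108, edgeR quasi-likelihood). The fall was near its full size in each knockout library, with centred log2 values of -0.57, -0.51 and -0.66. The adjusted p was 0.0565 without control library 1 and 0.0527 without control library 2, with log2 fold changes of -0.57 and -0.61.

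Hspa1a and Hspa1b, the stress-inducible HSP70 genes, are near-identical copies without introns, so their split between the 2 rows depends on how shared reads were counted, which is not given in the sources used here. Hspa1a had few counts, 216, 105 and 83 in the control libraries and 26, 13 and 37 in the knockout libraries. On the CPM scale these were 10.1, 5.16 and 5.04 in control and 1.42, 0.637 and 2.27 in knockout. The groups did not overlap, and control library 1 was about level with the sum of the other control libraries. Hspa1a fell 4.73-fold (log2 fold change -2.24, SE 0.534, 95% interval -3.52 to -0.96, adjusted p = 0.0193, edgeR quasi-likelihood), and 3.57-fold with an adjusted p of 0.0691 without control library 1. The control libraries held Hspa1b at 63.1, 47.1 and 45.1 CPM, against 50.7, 62.6 and 76.5 CPM in the knockout libraries. Here the groups overlapped, with control library 1 the highest control and knockout library 3 the highest of all. Its log2 fold change was 0.29 (SE 0.205, 95% interval -0.20 to 0.78, adjusted p = 0.312).

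Summed into 1 row, the pair did not pass. The sum in the control libraries was 73.2, 52.3 and 50.2 CPM, against 52.1, 63.3 and 78.8 CPM in the knockout libraries, a log2 fold change of 0.14 (SE 0.215, 95% interval -0.37 to 0.66, adjusted p = 0.632, edgeR quasi-likelihood). Hspa1a made up 13.8%, 9.86% and 10.0% of the pair's counts in the control libraries and 2.72%, 1.01% and 2.88% in the knockout libraries. The exact (Clopper-Pearson) 95% binomial intervals of these shares reached down to 8.08% in control and up to 3.96% in knockout, and they cover counting error only. The decrease was thus seen only in the minor row of the pair, whose counts depend on how shared reads were assigned. Inducible HSP70 mRNA as a whole did not change detectably. The genes closest to Hspa1a by the same measure were Wnt9a, Dennd2d and Cnksr1, at 0.192, 0.256 and 0.281.

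Hsph1 encodes HSP110 (HSP105), a distant HSP70 relative that exchanges the nucleotide of HSP70 and keeps denatured proteins soluble. Its control libraries held 433, 455 and 428 CPM, against 185, 168 and 105 CPM in the knockout libraries. Even the highest knockout library held less than the lowest control library by a wide margin, and knockout library 3 was the lowest. Hsph1 fell 2.88-fold (log2 fold change -1.53, SE 0.223, 95% interval -2.06 to -0.99, adjusted p = 0.00342, edgeR quasi-likelihood). It passed under all 17 alternatives run, with log2 fold changes from -1.69 to -1.32 and adjusted p-values up to 0.0179. Other HSP110-type genes were named after their values were seen. Hspa4 had a log2 fold change of -0.61 (adjusted p = 0.0527, edgeR quasi-likelihood), and Hspa4l had -0.12 (adjusted p = 0.525). Hyou1, the relative in the endoplasmic reticulum, had 0.18 (adjusted p = 0.226), with every knockout value above every control value.

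Dnajb1, the HSP40 that delivers clients to HSP70 and is itself a classic heat shock gene, did not change detectably. Its control libraries held 102, 91.0 and 92.0 CPM, against 102, 86.6 and 95.4 CPM in the knockout libraries. The groups overlapped fully. The log2 fold change was -0.01 (SE 0.117, 95% interval -0.29 to 0.27, adjusted p = 0.976, edgeR quasi-likelihood).

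The 2 cytosolic HSP90 genes are Hsp90aa1, the more stress-inducible HSP90 alpha, and Hsp90ab1, the constitutive HSP90 beta. The control libraries held Hsp90aa1 at 1776, 1838 and 1702 CPM, against 1209, 990.3 and 585.7 CPM in the knockout libraries. Every knockout library was below control, and knockout library 3 was far below the other 2. Hsp90aa1 fell 1.91-fold (log2 fold change -0.93, SE 0.263, 95% interval -1.56 to -0.30, adjusted p = 0.0338, edgeR quasi-likelihood). The call was kept without knockout library 1 (log2 fold change -1.17, adjusted p = 0.0186) or knockout library 3 (-0.69, adjusted p = 0.00088). It was lost in the other cases: the adjusted p was 0.0948, 0.0995 and 0.0869 without control library 1, 2 or 3 and 0.0725 without knockout library 2, with log2 fold changes of -0.94, -0.94, -0.99 and -0.98. The control libraries held Hsp90ab1 at 5859, 5880 and 5681 CPM, against 5258, 4745 and 4093 CPM in the knockout libraries. The groups did not overlap, but the gap was small beside the spread of the knockout libraries. Its log2 fold change was -0.31 (SE 0.139, 95% interval -0.64 to 0.03, adjusted p = 0.132). Without knockout library 3, Hsp90ab1 passed with a smaller log2 fold change of -0.21 (adjusted p = 0.0341).

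Hspd1 and Hspe1 encode the mitochondrial chaperonin and its lid. The control libraries held Hspd1 at 1088, 1200.1 and 1058 CPM, against 797.5, 751.7 and 359.8 CPM in the knockout libraries. All knockout libraries were below control, and knockout library 3 was the lowest by far. The log2 fold change of Hspd1 was -0.81 (SE 0.299, 95% interval -1.52 to -0.09, which is not adjusted for the number of genes; adjusted p = 0.0772, edgeR quasi-likelihood). Without knockout library 3 it passed, with a log2 fold change of -0.52 (adjusted p = 0.00171), and DESeq2, which made more false calls than edgeR on simulated counts, called it on all libraries (adjusted p = 0.0265). The control libraries held Hspe1 at 228, 243 and 206 CPM, against 198, 198 and 135 CPM in the knockout libraries. The nearest control and knockout libraries of Hspe1 were close together. Its log2 fold change was -0.35 (SE 0.182, 95% interval -0.79 to 0.08, adjusted p = 0.177).

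**Figure D2:**
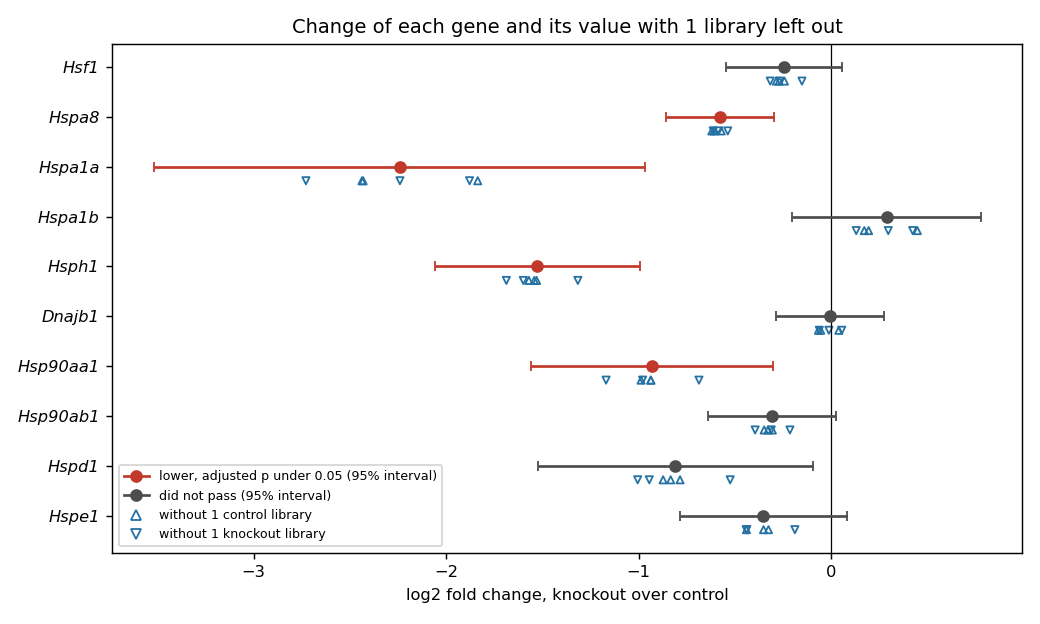
Log2 fold change of each gene, knockout over control (horizontal axis), as a point with its 95% interval, red for the 4 genes with an adjusted p under 0.05; open triangles give the value with 1 control (up) or 1 knockout (down) library left out. The upper end of the interval lies farthest below 0 for Hsph1 (-0.99, beside -0.96 for Hspa1a), and Hspa1a has the widest interval. The point farthest to the right for Hsf1, Hspa8, Hsph1, Hsp90aa1, Hsp90ab1, Hspd1 and Hspe1 is the one without knockout library 3.

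The 10 genes differed in how their values were spread over the libraries. By the root mean square difference of centred log2 CPM, Hsf1 and Hsp90ab1 were closest at 0.0558, followed by Hsp90aa1 and Hspd1 at 0.119 and by Hsp90ab1 and Hspe1 at 0.12. Hspa1a and Hspa1b, the near-identical copies, were the farthest apart of all pairs, at 1.84. In knockout library 3 the centred log2 values were -1.60 for Hsp90aa1, -1.63 for Hspd1 and -2.06 for Hsph1, against -0.55, -0.48 and -1.25 in knockout library 1. Of the 4 genes that fell, Hspa8 had the most even centred values over the 3 knockout libraries.

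Ratios between 2 chaperones within a library need no scaling between libraries. The size of a ratio also reflects the lengths of the transcripts and is no molar ratio, so only its difference between groups is read. The log2 ratio of Hsp90aa1 to Hsp90ab1 counts, inducible over constitutive HSP90, was -1.72, -1.68 and -1.74 in control and -2.12, -2.26 and -2.80 in knockout, a mean difference of -0.68. The ratio was lower in all 3 knockout libraries than in any control library. For inducible over constitutive HSP70, the log2 ratio of Hspa1a plus Hspa1b to Hspa8 was -5.39, -5.85 and -5.88 in control and -5.29, -5.06 and -4.60 in knockout, a difference of 0.72 in the other direction. Control library 1 came close to knockout library 1 in this ratio. Hsph1 to Hspa8 differed by -0.99 and Dnajb1 to Hspa8 by 0.57, so relative to constitutive HSP70 the HSP110 counts were lower in knockout and the HSP40 counts higher. The ratios over Hspa8 all contain its own log2 fold change of -0.58, so they are not independent. Dnajb1 itself had -0.01 and the summed Hspa1a and Hspa1b row 0.14, and neither passed the test. The log2 ratio of Hspd1 to Hspe1, the genes with a shared promoter, was 2.26, 2.30 and 2.36 in control and 2.01, 1.93 and 1.42 in knockout, a difference of -0.52. All 5 ratios separated the groups without overlap. Single genes did so for 57.6% of those tested, and no such share was computed over ratios of other genes. Each had a two-sided exact permutation p of 0.1 (0.1 after adjustment over the 5), the smallest that 3 against 3 libraries allow, so none could pass a threshold of 0.05.

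**Figure D3:**
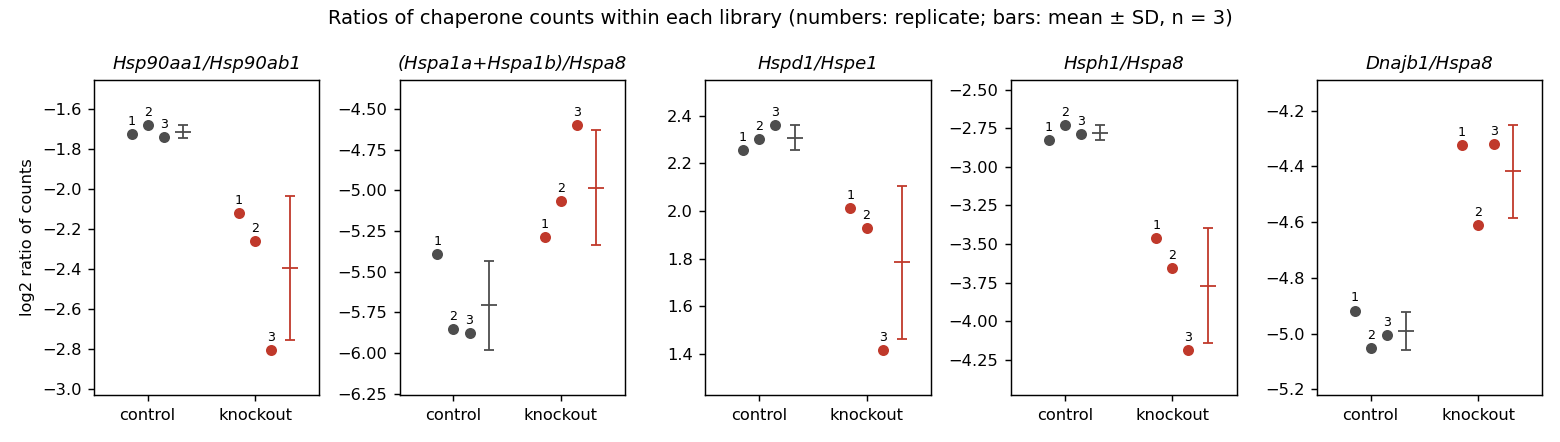
Log2 ratio of counts within each library (vertical axis, a different range in each panel and not from 0) for 5 pairs of chaperone genes, with replicate numbers and the mean ± SD of each group (n = 3). Hsp90aa1/Hsp90ab1, Hspd1/Hspe1 and Hsph1/Hspa8 are lower in knockout, lowest in knockout library 3, and (Hspa1a+Hspa1b)/Hspa8 and Dnajb1/Hspa8 are higher.

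The other chaperone genes moved in both directions. Over 148 other genes of the chaperone lists, 135 were tested, of which 19 rose, 15 fell and 101 did not pass, which is 14.1% higher and 11.1% lower beside 20.3% and 15.4% for all genes tested. Their median log2 fold change was -0.03. These numbers depended on single libraries: 15, 11 and 13 were higher and 3, 1 and 2 lower when control library 1, 2 or 3 was left out. Without knockout library 2, 7 were lower, and without knockout library 3, 35 were higher and 36 lower. Over all genes tested, 1511, 1166 and 1228 were higher and 1174, 1146 and 1130 lower without control library 1, 2 or 3. The number lower was 1450 without knockout library 2. Without knockout library 3, 3178 of 12471 were higher and 2843 lower, in place of 2493 and 1899 of 12293 with all libraries. Of the 148 genes, 29 were on more than 1 list, so the lists are not independent.

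Of 22 other genes known as HSF1 targets, 4 rose, 2 fell and 16 did not pass, with a median of -0.28. That is 18.2% higher and 9.09% lower, beside 20.3% and 15.4% of all genes tested. Serpinh1, the collagen chaperone HSP47 of the endoplasmic reticulum, rose 4.48-fold from 67.8 ± 10.7 to 304 ± 66.0 CPM (SD, n = 3 each, adjusted p = 0.000958, edgeR quasi-likelihood). Bag3, which couples HSP70 to autophagy, rose 1.57-fold (adjusted p = 0.00513). Ier5, a stress-response gene, rose 2.12-fold (adjusted p = 0.0152; 0.0715 without control library 2 and 0.071 without control library 3). Dnaja1, a cytosolic HSP40, fell by 0.58 on the log2 scale (adjusted p = 0.0207; 0.0756, 0.0757 and 0.0561 with control library 1, 2 or 3 left out). Without knockout library 3, 4 of the 22 rose and 10 fell, beside 3178 and 2843 of the 12471 genes tested in that fit. The count that fell was 0 without control library 1, 2 or 3 (3 each at an unadjusted p under 0.05, edgeR), and 1 without knockout library 2, while 2 rose without control library 2 or 3.

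The cytosolic chaperonin CCT, which folds actin and tubulin, and prefoldin, which hands these proteins to it, had a low median. Of 14 genes tested, 5 fell and 9 did not pass, which is 35.7% beside 15.4% lower among all genes, and the median was -0.46. Pfdn1 had a log2 fold change of -0.63 and Pfdn4 of -0.73 (adjusted p = 0.0103 and 0.0122, edgeR quasi-likelihood). Cct7 and Cct2 had -0.57 and -0.51 (adjusted p = 0.029 and 0.0338). Without control library 1, 2 or 3 only 2, 1 and 2 of the 14 fell, without knockout library 2, 3 fell, and without knockout library 3, 9 fell. In that last fit 2843 of the 12471 genes tested fell. The calls of Cct2 and Cct7 were lost without any 1 control library (adjusted p from 0.0752 to 0.119) and without knockout library 2 (0.0818 and 0.0685), and that of Pfdn4 without control library 2 (0.0569).

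HSP90 co-chaperones mostly did not pass: of 23 tested, 1 rose and 1 fell. That is 4.35% each way, beside 20.3% higher and 15.4% lower among all genes tested. Fkbp5, an immunophilin that tunes steroid receptors and a known glucocorticoid-responsive gene, rose 6.66-fold, from 132, 167 and 174 CPM in control to 762, 815 and 1573 CPM in knockout (adjusted p = 0.00169, edgeR quasi-likelihood). Ptges3, the p23 co-chaperone of closed HSP90, fell 1.51-fold (adjusted p = 0.0331), which was lost without control library 1, 2 or 3 (0.0961, 0.101 and 0.0908) or knockout library 2 (0.0761). Without knockout library 3, 2 rose and 8 fell, beside 3178 and 2843 of the 12471 genes tested in that fit. Of 12 nucleotide exchange factors and cofactors of HSP70, 1 rose (8.33%), which was Bag3, and 2 fell (16.7%). These were Grpel2 and Grpel1, the mitochondrial exchange factors, at -0.71 and -0.39 on the log2 scale (adjusted p = 0.0254 and 0.0397). Both were lost when any 1 library other than knockout library 3 was left out (adjusted p from 0.0622 to 0.139). They were also the 2 of 15 mitochondrial chaperones and proteases that fell (13.3%). The other 13 did not pass, and without knockout library 3, 2 of the 15 rose and 3 fell.

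Of 39 J-domain proteins tested, partners that direct HSP70 to its tasks, 9 rose, 6 fell and 24 did not pass. That is 23.1% higher and 15.4% lower, near the 20.3% and 15.4% of all genes tested. Dnajb4, a close relative of Dnajb1, rose 6.34-fold, from 11.6, 10.4 and 13.2 CPM in control to 62.0, 67.5 and 93.4 CPM in knockout (adjusted p = 0.000507, edgeR quasi-likelihood). Thus Dnajb4 rose where Dnajb1 did not change detectably; the difference between them was not tested. Dnajc12, Dnajc3 and Dnajb2 rose 3.51-fold, 2.00-fold and 1.83-fold (adjusted p = 0.00304, 0.00525 and 0.00358). Leaving out control library 1, 2 or 3 left 6, 5 and 6 of the 39 higher, with these 4 genes passing each time, and 1, 0 and 0 lower in place of 6 (7 each at an unadjusted p under 0.05, edgeR). Without knockout library 3, 13 rose and 9 fell, beside 3178 and 2843 of the 12471 genes tested in that fit.

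Of 17 chaperones of the endoplasmic reticulum tested, 4 rose and 13 did not pass, with a median of 0.27. That is 23.5% higher and 0% lower, beside 20.3% and 15.4% of all genes tested. The 4 were Serpinh1, Dnajc3, the disulfide isomerase P4hb, which rose 2.22-fold (adjusted p = 0.00579, edgeR quasi-likelihood), and Dnajb9, which rose 3.72-fold (adjusted p = 0.0114, and 0.0519 and 0.0573 without control library 1 or 2). Hspa5 (BiP), the HSP70 of this compartment, named after its values were seen, averaged 1008 ± 17.1 CPM in control libraries and 991 ± 109 CPM in knockout libraries (SD, n = 3 each; adjusted p = 0.895, edgeR quasi-likelihood). The HSP90 of this compartment, Hsp90b1, had a log2 fold change of 0.16 (adjusted p = 0.464), and 0.29 without knockout library 3 (adjusted p = 0.0183). Mitochondrial HSP90, Trap1, had 0.08 (adjusted p = 0.632). Of 9 other HSP70 genes tested, 1 rose (11.1%), Hspa13, with a log2 fold change of 0.40 (adjusted p = 0.0401, edgeR quasi-likelihood). Its adjusted p was 0.0736 to 0.191 when any 1 library other than knockout library 3 was left out. Of the 9, 1 fell without knockout library 1 and 2 fell without knockout library 3. Without knockout library 3, 12 of the 17 chaperones of the endoplasmic reticulum rose, beside 3178 of the 12471 genes tested in that fit.

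Of 7 small heat shock proteins tested, which hold unfolding proteins for HSP70 to refold, 2 rose and 5 did not pass (4 rose and 1 fell without knockout library 3). The share higher was 28.6%, beside 20.3% of all genes tested, but it counts Hspb7, whose direction was fixed by the filter on low counts. Hspb6 rose 7.58-fold (adjusted p = 0.00141, edgeR quasi-likelihood), and Hspb7 was at 0 in every control library, so it entered the test only through its knockout counts. Hspb7 stood at 250.3, 267 and 464 CPM in the knockout libraries after its deposited counts, all multiples of 11, had been divided by 11. With the divided rows left out, Hspb7 among them, 1 of 6 small heat shock proteins tested rose. Hspb1 and Cryab, named after their values were seen, stood at 2824 and 784 CPM in knockout library 3 (adjusted p = 0.113 and 0.0724, edgeR quasi-likelihood). Hspb1 was at 365.7 to 556.2 CPM in the other libraries, where the groups overlapped. Cryab held 177, 126 and 116 CPM in control and 231 and 195 CPM in knockout libraries 1 and 2, so every knockout value was above every control value. Cryab was called higher by edgeR without knockout library 2 or 3, and DESeq2 called both genes higher on all libraries. Knockout library 3 was thus high in these 2 and lowest of all libraries in Hsp90aa1, Hspd1 and Hsph1. Among the HSF family and its binding proteins 4 of 7 were tested, where Hsf4 and Hsf2bp, both under 2 CPM in every library, fell and rose (adjusted p = 0.0372 and 0.0129). Each passed the filter on low counts only through the group where it was high, Hsf4 through control and Hsf2bp through knockout. The call of Hsf4 was lost when any 1 library other than knockout library 3 was left out (adjusted p from 0.0764 to 0.127), and its log2 fold change of -3.14 was -2.53 without knockout library 2 and -4.77 without knockout library 3. Hsf2bp was lost without control library 2 (adjusted p = 0.0518).

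**Figure D4:**
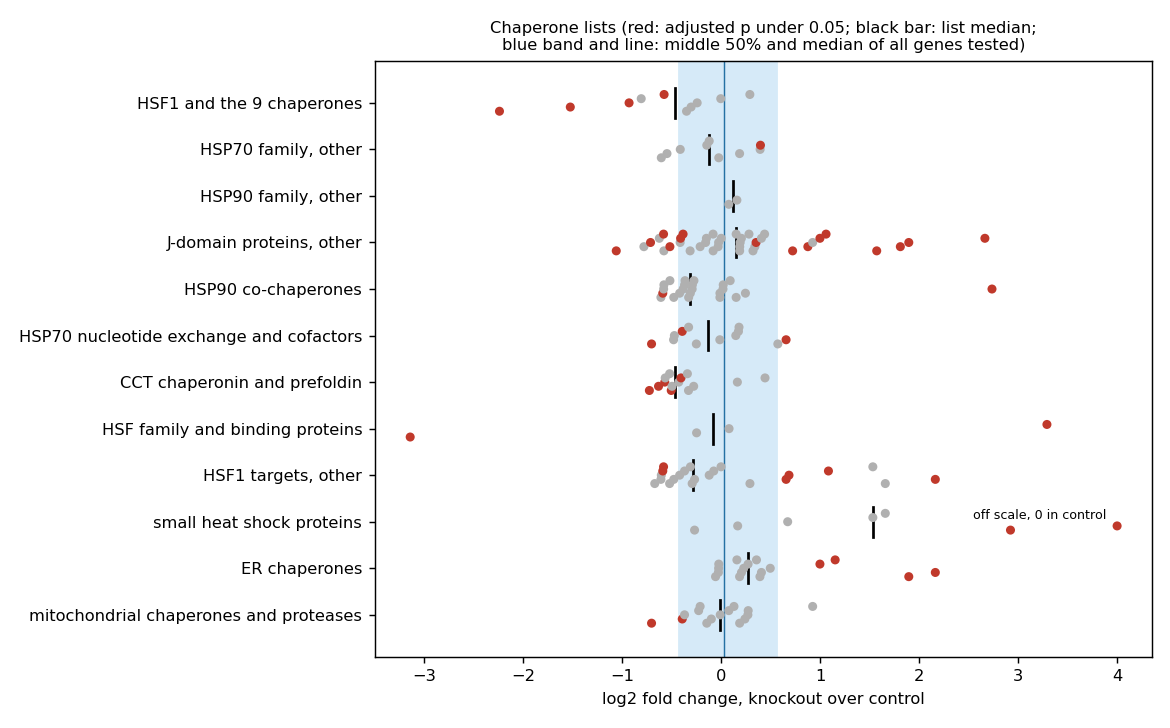
Log2 fold change, knockout over control (horizontal axis), of each tested gene of the 11 chaperone lists and of the 10 genes described here, red where the adjusted p was under 0.05; black bars are list medians, and the blue band and line are the middle 50% and the median of all genes tested. The 10 genes and the CCT and prefoldin list have the lowest medians, both -0.46, and the small heat shock proteins have the highest, 1.53. Without knockout library 3 that median is 0.43, beside 0.42 for the chaperones of the endoplasmic reticulum. One gene, Hspb7, at 0 in every control library, is drawn at the edge because its fold has no fixed value.

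Immediate early genes, which respond to handling and growth signals, were examined as a sign of acute stress. Of 20 tested, 3 rose (15%), 2 fell (10%) and 15 did not pass, beside 20.3% higher and 15.4% lower among all genes tested. Egr2, Egr3 and Klf2 rose, and Ier3 and Myc fell. Egr2 passed the filter on low counts only through its knockout counts. The median log2 fold change of the 20 was 0.80, beside 0.03 over all genes tested, and 0.05 without knockout library 3. The summed level of the 20 was 1896 to 2981 CPM in control and 1153 to 4670 CPM in knockout, so the groups overlapped in this sum. Without control library 2 or 3, 1 of the 20 rose and 0 fell (2 were lower at an unadjusted p under 0.05, edgeR), and 1 fell without control library 1 or knockout library 3. Without knockout library 2, 6 rose. The 13 mitochondrially encoded mRNAs were at 0 in every library and gave no measure of RNA quality. The part of handling or RNA quality in the chaperone results was not tested.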

How the data were processed

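The authors deposited whole-number counts per gene symbol for 6 libraries. The submitters' processing notes name STAR 2.7.1a, featureCounts and hg38 and give them no role; annotation, strand and filter settings are unknown here. In 1704 of the 21872 rows, those with 0 in control library 1, every count was a multiple of 11. They were divided by 11 for every test; none of the 10 genes was among them, and 76 were tested. Library names in the sample descriptions tied columns to samples, and titles gave the groups. The test was the robust quasi-likelihood test of edgeR 4.0.16 (R 4.3.3) after filterByExpr and TMM, with Benjamini-Hochberg adjustment over 12293 genes and a threshold of 0.05. CPM are counts divided by the TMM-scaled total, in the usual unit. Standard errors came from the fold change and its test statistic. Centred log2 CPM used a prior count of 2. Alternatives used DESeq2 1.42.0, limma 3.58.1, other scalings and filters, a replicate block, a test against a 1.5-fold change and each library left out. The procedure was tested on simulated data: edgeR and limma-voom stayed under the limit set for false calls and DESeq2 did not, after which the limit was no longer applied to DESeq2, so calls made by DESeq2 alone are less reliable. No 2 libraries of a group agreed within sampling noise (chi-square test), so each counted once. The 10 genes and the lists were chosen with earlier results of these data known. Named list genes are up to 4 with the smallest p among those called in each list, or 2 where none was; others are said to have been picked later. Some genes of the table and the lists are not reported here.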

Additional observations from a re-analysis of the deposited data

How the results depend on the processing

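All 17 alternatives kept the direction of 9 of the 10 genes wherever they were tested; the exception was Dnajb1, whose log2 fold change of -0.01 lay between -0.066 (without control library 2) and 0.056 (without knockout library 2) with 1 library left out, and was 0.041 without control library 1. Of the 10 genes, 1 to 6 were called lower with 1 library left out, 2 against a 1.5-fold change and 4 with all libraries. Of the other chaperone genes, 11 to 35 were called higher and 1 to 36 lower with 1 library left out; against a 1.5-fold change edgeR called 11 higher and 0 lower (2 at an unadjusted p under 0.05). The cause was not tested, though a fit on fewer libraries or against a larger change can call fewer genes. A replicate block by title number called 7 other genes lower in place of 15, and 3 of the 10, with Hspa8 at an adjusted p of 0.056. The numbers only name the libraries: same-numbered libraries had correlations of -0.05, 0.26 and 0.02 in their deviations, and not every library correlated best with its own number. With a mean of at least 5 CPM required, Hspa1a was not tested. All genes called were 3591 with the block and 2280 against a 1.5-fold change, in place of 4392, and 2312 to 6021 with 1 library left out. The other scalings moved the share of higher calls by under 10 percentage points. Depth limits Hspa1a, with 13 to 216 counts.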
